A study of Mus musculus with 56 samples.

Results

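The immediate early genes described here are Fos, Fosb, Jun, Junb, Egr1, Nr4a1, Nr4a3, Atf3, Btg2 and Ier2. They were chosen by name, as 10 of the 15539 genes in the count table, and all 10 were among the 14321 genes that had enough reads to be tested. RNA of whole gastrocnemius, a calf muscle, was measured in 56 chow-fed C57BL/6 mice, with 7 mice in each of 8 groups. The groups combine sex, genotype label and a locked or running wheel. They are male controls with a locked (MC) or running wheel (MCE), males labelled HuR skeletal muscle knockout (HuRm-/-) with a locked (MH) or running wheel (MHE), and the same 4 groups of females (FC, FCE, FH and FHE). HuRm-/- mice carry a floxed Elavl1, the gene of the RNA-binding protein HuR, and a Cre recombinase driven by the Mlc1f promoter, which is active in skeletal muscle fibres, while whole muscle also holds other cells. Controls are HuR fl/fl littermates, so both genotypes carry the floxed allele. The labels place the running wheels between 10 and 20 weeks of age in one field, and in another give an age of 5 months and 10 weeks of running. No label says how long after the last run the muscle was taken.

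Immediate early genes are switched on within minutes of a stimulus by transcription factors that are already present in the cell, chiefly SRF with its ternary complex partners and CREB, which kinase cascades activate. Many of their transcripts carry AU-rich elements in the 3′ end and are short-lived, and HuR is known for binding such elements. In skeletal muscle they respond to a bout of contraction, to stretch and to injury, and most of them encode transcription factors or brakes on growth.

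The deposited counts sum to between 6639782 and 21633091 per mouse (median 12380363). Values are CPM after TMM normalization, that is, the reads of a gene scaled to a common library total, and a log2 fold change of 1 is a doubling. A gene was called where limma's Benjamini-Hochberg adjusted p over all genes tested was 0.05 or less. These p-values set a difference between groups against the spread between mice within groups, estimated over all 8 groups. The skeletal muscle markers were high in all mice, with the 12 marker genes summing to between 91361 and 133060 CPM. Mice labelled HuRm-/- did not have less Elavl1 RNA, and the mean log2 fold change over the 4 pairs of groups was 0.13 (standard error 0.06, adjusted p = 0.150), and in running males it was higher in the labelled mice (0.44, adjusted p = 0.0242). Directions given for genotype therefore rest on the labels. Counts per gene in whole muscle, which also holds other cells, do not settle whether Elavl1 was deleted in the fibres. The library of FH mouse 34 stood apart. In it, 83 of 9049 well-expressed genes lay more than 1.5 log2 units below every other mouse, against at most 3 genes in any other library, and Nr4a1 was one of the 83.

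Promoter sequences from RefSeq were at hand for 8 members, not for Egr1 and Ier2, and the core of the CREB binding site, TGACG on either strand, was looked for in the 250 bases before the start of transcription that RefSeq gives, which can differ from the GENCODE start. It occurred in 7 of the 8 (Fos, Fosb, Junb, Nr4a1, Nr4a3, Atf3 and Btg2, not Jun), and in 19.8% of 27025 mouse genes in windows of the same length. The full palindrome TGACGTCA, which holds TGACG on both strands, was found in Btg2 and in 1.77% of all genes. TATAAA was found in Fos and in 14.3% of all genes, and the CArG box, the site of SRF, was found in 0 of the 8 and in 1.62% of all genes. Bases further upstream than 250, and the promoters of Egr1 and Ier2, were not searched. The 0 therefore does not show that the members lack a CArG box. Stretches of 100 bases are shown for Fos, Nr4a3, Jun and Btg2, each called in a comparison below, and for Atf3, whose match lies closest to the start. Junb was also called in a comparison below, and its stretch is not shown. They are read 5′ to 3′ along the gene's own strand in GRCm38.p6, with matches to TGACG or its complement in capitals. The stretches are chr12:85473745-85473844 on the plus strand for Fos, chr4:48045068-48045167 on the plus strand for Nr4a3, chr4:95052223-95052322 on the minus strand for Jun, chr1:134079268-134079367 on the minus strand for Btg2 and chr1:191183334-191183433 on the minus strand for Atf3.
Fos: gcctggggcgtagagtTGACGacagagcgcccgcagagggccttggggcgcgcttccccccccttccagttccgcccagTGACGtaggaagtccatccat
Nr4a3: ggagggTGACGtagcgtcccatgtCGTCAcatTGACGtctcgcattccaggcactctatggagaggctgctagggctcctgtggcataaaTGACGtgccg
Jun: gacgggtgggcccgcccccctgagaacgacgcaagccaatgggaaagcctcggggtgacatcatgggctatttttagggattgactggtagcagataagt
Btg2: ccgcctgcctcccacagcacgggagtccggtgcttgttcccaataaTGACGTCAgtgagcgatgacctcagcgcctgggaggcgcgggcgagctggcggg
Atf3: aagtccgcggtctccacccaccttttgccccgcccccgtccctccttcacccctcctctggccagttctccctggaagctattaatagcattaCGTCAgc
Nr4a1 and Nr4a3 hold 4 matches each, Fos and Btg2 2 each, and Fosb, Junb and Atf3 1 each. A match describes the letters and does not show that a factor bound there.

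The 3′ ends were searched for the AU-rich pentamer ATTTA and for the longer element TTATTTATT, in the GRCm38 genome with GENCODE M21 transcripts. The pentamer occurred in 9 of the 10 members, all but Ier2, and in 70.0% of 13543 genes. Per kilobase of 3′ end, the members held a median of 2.4 pentamers and all genes 1.3. The 9-base element occurred in Fos and in no other member, and in 8.01% of all genes. The sites below are 30 bases each, 5′ to 3′, with the elements in capitals. Those of Fos (chr12:85477103-85477132, plus strand), Jun (chr4:95049542-95049571, minus strand), Nr4a3 (chr4:48083566-48083595, plus strand) and Btg2 (chr1:134077241-134077270, minus strand) are shown, so that the element of Fos can be set beside 1 pentamer of each of the others, whose whole 3′ ends hold 4 (Jun), 5 (Nr4a3) and 5 (Btg2).
Fos: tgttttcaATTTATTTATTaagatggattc
Jun: aggatATTTAagaaaatacaataaactatt
Nr4a3: tttatATTTAggctttggtgggtgggttgg
Btg2: gagctATTTAtacatgtttttttttttttt
Genes with TTATTTATT had a median log2 fold change of 0.02 between labelled and control mice (n = 1045) and all genes with a 3′ end 0.01 (n = 12857). Of the former 4.02% were called higher and 7.37% lower, and of the latter 4.30% higher and 7.72% lower.

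**Figure D1:**
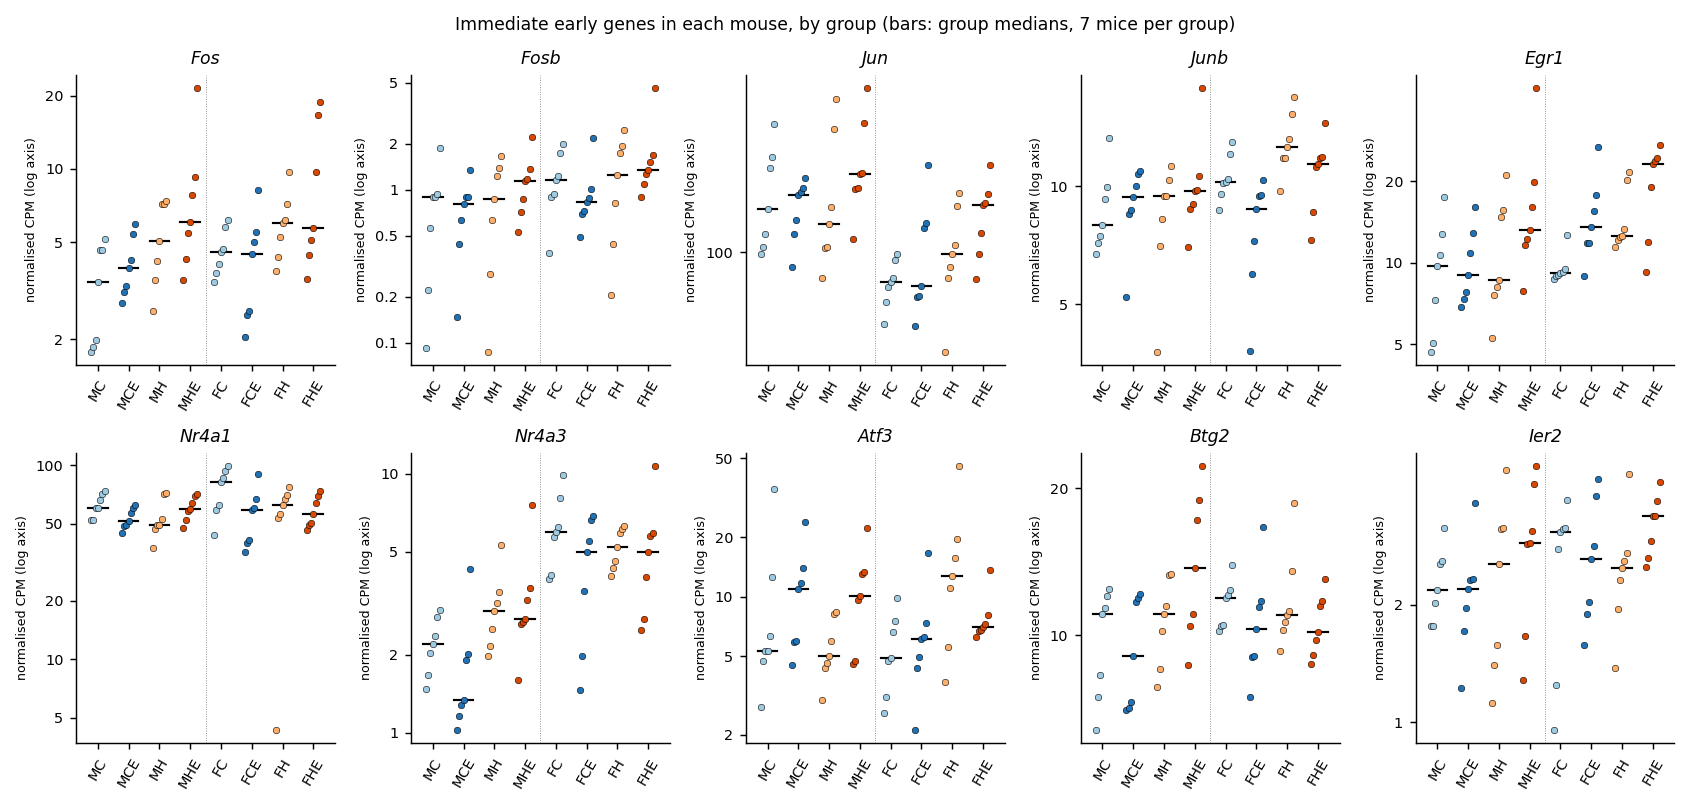
Normalised CPM of the 10 immediate early genes (one panel each, logarithmic y axis) in each of the 56 mice, by group on the x axis, with bars at the group medians. Single mice stand far from their group, such as the MHE mouse at 21.5 CPM of Fos and the FH mouse at 4.33 CPM of Nr4a1. The female groups are on the right. Their medians of Nr4a3 are higher and of Jun lower than in males of the same label and wheel.

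Levels varied between mice of the same group to a very different extent from gene to gene. The standard deviation within groups, on the log2 scale, was 0.26 for Jun, 0.34 for Btg2 and 0.39 for Junb, and it was 0.66 for Fos, 0.86 for Atf3 and 1.08 for Fosb. Across all 56 mice the highest value of Atf3 was 21.6 times the lowest, that of Fos 12.1 times and that of Jun 2.67 times. Part of the spread of the low genes is counting error, since Fosb had between 1 and 63 counts per mouse, Ier2 between 10 and 57, Nr4a3 between 10 and 146 and Fos between 14 and 257. Jun had between 581 and 2601 counts, so its values are the firmest of the set. As the tissue was measured in bulk, fewer cells of a type and less RNA per cell cannot be told apart.

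In all, 3 comparisons run through the design, each as the mean of 4 pairs of groups. For running against locked wheels, limma called 0 of the 10 members, against 5.96% of all genes tested. For this comparison 1 member, Egr1, had an unadjusted p under 0.05, as did 2862 of the 14321 genes, and edgeR's quasi-likelihood test and limma with sample quality weights called that 1. For the genotype label, 2 of the 10 were called higher in the labelled mice (Fos and Egr1) and 0 lower, against 4.43% of all genes called higher and 7.41% lower. For sex, 2 were called higher in females (Nr4a3 and Egr1) and 1 lower (Jun), against 15.8% of all genes called higher and 17.1% lower, so that the members' shares were near the background. The members' median log2 fold change was 0.13 for the wheel, 0.28 for the genotype label and 0.19 for sex, and that of all genes tested lay between 0.00 and 0.01 in the 3 comparisons. With the genotype label, 9 of the 10 members had a positive value, all but Nr4a1, whose value was -0.04 without FH mouse 34. These signs are not independent, since 44 of the 45 pairs of members correlated positively over the mice.

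**Figure D2:**
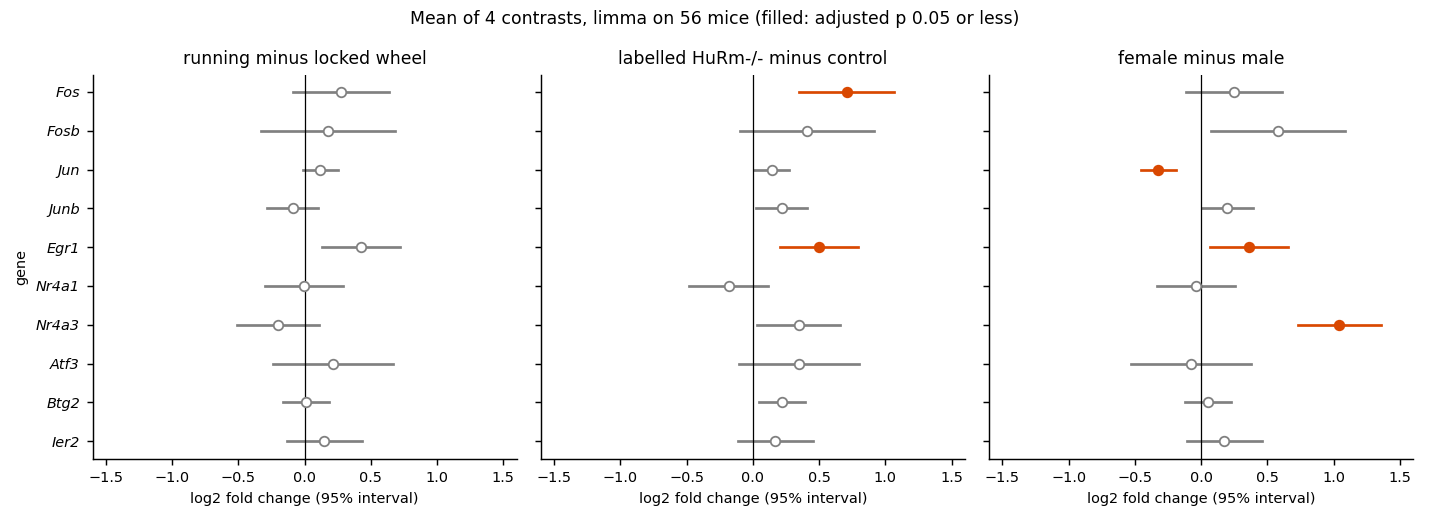
Log2 fold change (x axis, points) with its 95% interval (lines) for each immediate early gene, as the mean of 4 pairs of groups, for running minus locked wheel, labelled HuRm-/- minus control, and female minus male. Filled points passed the test: none for the wheel, Fos and Egr1 for the genotype label, and Nr4a3, Jun and Egr1 for sex.

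The AP-1 transcription factor is a pair of a Fos and a Jun protein, and 4 members encode its subunits. Fos, on the plus strand of chromosome 12 from 85473890 to 85477273 (GRCm38), was higher in the labelled mice. In males with locked wheels it ran from 1.78 CPM (median 3.43) to 5.16 CPM in controls and from 2.62 CPM (median 5.05) to 7.38 CPM in labelled mice. In males with running wheels it ran from 2.83 CPM (median 3.91) to 5.97 CPM in controls and from 3.49 CPM (median 6.05) to 21.5 CPM in labelled mice. In both pairs the ranges overlapped, and the labelled group had the higher median. In females with locked wheels controls lay between 3.44 and 6.14 CPM (median 4.55) and labelled mice between 3.82 and 9.70 CPM (median 6.02). In females with running wheels controls lay between 2.04 and 8.18 CPM (median 4.48) and labelled mice between 3.54 and 18.9 CPM (median 5.73). The medians were again higher in the labelled mice and the ranges overlapped. The mean log2 fold change was 0.71 (standard error 0.18, adjusted p = 0.00524), a 1.63-fold higher level. None of the 4 pairs passed the test alone, with log2 fold changes between 0.32 (FH against FC) and 0.93 (FHE against FCE) and adjusted p between 0.197 and 0.732. Without the highest mouse, MHE 22, the mean was 0.65 (adjusted p = 0.00701). Fos did not pass the test with the wheel (0.27, standard error 0.18, adjusted p = 0.430) or with sex (0.25, adjusted p = 0.304), and with only the compared groups fitted it was called in FC against MC (0.69, adjusted p = 0.0441).

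Fosb, a second Fos subunit on chromosome 7 (19302696 to 19310051, minus strand), had few reads, and no comparison of it passed the test. Its group medians lay between 0.81 CPM (MCE) and 1.35 CPM (FHE), and single mice between 0.087 CPM and 4.63 CPM. It had a positive log2 fold change with sex in all 4 pairs, with a mean of 0.58 (standard error 0.25, adjusted p = 0.0719), and one of 0.41 with the genotype label (standard error 0.25, adjusted p = 0.325).

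Jun, the main partner of Fos, lies on the minus strand of chromosome 4 (95049034 to 95052222), and its antisense gene Junos shares 689 bases with it, so that reads of the pair cannot be told apart if strand was not used in counting. It was lower in females. Among locked-wheel controls it ran from 99.6 CPM (median 117.6) to 161.5 CPM in males and from 76.7 CPM (median 89.4) to 99.5 CPM in females. Each of the 7 females lay below each of the 7 males, with a log2 fold change of -0.46 (standard error 0.13, adjusted p = 0.00871), in a comparison that called 21.5% of all genes. The highest female (99.5 CPM) and the lowest male (99.6 CPM) nearly touched, and how many genes separate in this way was not counted. In the other 3 pairs the sexes overlapped, and the log2 fold change was -0.28 in each (adjusted p between 0.123 and 0.222). The mean of the 4 pairs was -0.32 (standard error 0.07, adjusted p = 6.5e-05). Jun did not pass the test with the genotype label (0.14, adjusted p = 0.158) or the wheel (0.12, adjusted p = 0.314).

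Junb encodes a Jun subunit that acts as a weaker activator (chromosome 8, 84974484 to 84978718, minus strand). It overlaps 351 bases of Prdx2 on the other strand, which limits its values in the same way. Among the labelled mice with locked wheels it ran from 3.78 CPM (median 9.43) to 11.3 CPM in males and from 9.73 CPM (median 12.6) to 16.9 CPM in females. The male range was wider and lower, and the ranges overlapped. The log2 fold change between females and males in that pair was 0.67 (standard error 0.19, adjusted p = 0.00628), in a comparison that called 19.3% of all genes, and without MH mouse 8, the lowest, it was 0.47 (adjusted p = 0.0509). The mean over the 4 pairs was 0.20 (adjusted p = 0.107).

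Junb was also the only member called in a test of one difference against another. With the running wheel its log2 fold change was 0.06 (MCE against MC) and 0.33 (MHE against MH) in males, and -0.50 (FCE against FC) and -0.24 (FHE against FH) in females, and none of these 4 passed the test. The difference of the wheel contrast between the sexes was -0.56 (standard error 0.19, adjusted p = 0.0394), where 13.7% of all genes were called. It had an adjusted p over 0.05 in 19 of the 56 fits that left out 1 mouse. In the same comparison 8 of 8 fibroblast markers and 6 of 10 leukocyte markers were called in the same direction, as were 4 of 6 erythroid, 4 of 10 adipocyte, 1 of 8 Schwann cell and 1 of 5 satellite cell markers, and 5 of 12 skeletal muscle markers were called in the opposite direction. The fibroblast markers summed to between 2645 and 5260 CPM in FC and between 1587 and 2468 CPM in FCE, the leukocyte markers to between 110.7 and 251.2 CPM in FC and between 68.4 and 140.4 CPM in FCE, and the part of these shifts in the result was not tested.

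Egr1, a zinc finger transcription factor and a main target of SRF, lies on chromosome 18 (34859823 to 34864984, plus strand). It was called with the genotype label and with sex, and was nearest to the threshold with the wheel. In males with locked wheels it ran from 4.69 CPM (median 9.73) to 17.4 CPM in controls and from 5.25 CPM (median 8.66) to 21.1 CPM in labelled mice. In males with running wheels it ran from 6.88 CPM (median 9.003) to 16.03 CPM in controls and from 7.82 CPM (median 13.3) to 44.4 CPM in labelled mice. The highest of these, again MHE mouse 22, lay above the other 6 mice of its group, which reached 19.9 CPM. Female controls lay between 8.69 and 12.7 CPM (median 9.15) with locked wheels and between 8.90 and 26.8 CPM (median 13.5) with running wheels. Labelled females lay between 11.5 and 21.6 CPM (median 12.5) with locked wheels and between 9.22 and 27.2 CPM (median 23.3) with running wheels. Female controls with locked wheels were tightly grouped and the other groups were spread out, and all pairs of groups overlapped.

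Over the 4 pairs, Egr1 had a log2 fold change of 0.50 with the genotype label (standard error 0.15, adjusted p = 0.0172), between 0.36 and 0.65 in single pairs, none of which passed alone. With sex it was 0.36 (standard error 0.15, adjusted p = 0.0495), at the edge of the threshold, and its adjusted p rose above 0.05 in 37 of the 56 fits that left out 1 mouse, up to 0.101. With the wheel it was 0.43 (standard error 0.15, adjusted p = 0.0699), and positive in 4 of 4 pairs (0.23 to 0.56). Without FH mouse 34 the wheel value was 0.45 (adjusted p = 0.0470), and without MHE mouse 22 it was 0.36 (adjusted p = 0.102). With the wheel, 3 of 12 liver markers were called lower and the other 9 had negative values too. The liver markers summed to between 16.2 and 3624 CPM per mouse, with the highest value in an FC mouse. Of the other lists, 2 of 10 endothelial and 1 of 8 fibroblast markers were called higher and 1 of 10 adipocyte markers lower. Of 12 skeletal muscle markers 3 were higher and 4 lower. The part of any of these cells in the Egr1 values was not tested.

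**Figure D3:**
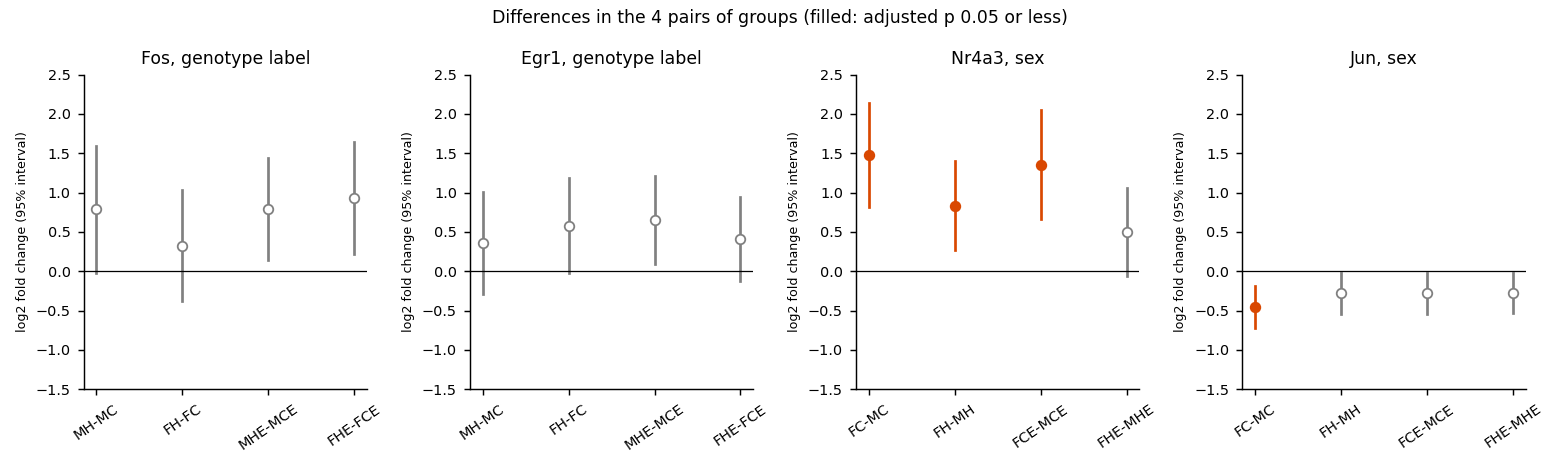
Log2 fold change (y axis, points) with its 95% interval (lines) in each of the 4 pairs of groups, for Fos and Egr1 by genotype label and for Nr4a3 and Jun by sex. Fos and Egr1 lie above 0 in all 4 pairs without passing the test in any, Nr4a3 passed in 3 pairs (filled points), and Jun passed in the locked-wheel controls.

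Nr4a1 and Nr4a3 encode orphan nuclear receptors of the same family, which in muscle are linked to the control of glucose and fat metabolism. Nr4a3, on chromosome 4 (48045153 to 48086447, plus strand), had the largest sex difference of the members. Among locked-wheel controls, males lay between 1.48 and 2.99 CPM (median 2.20) and females between 3.92 and 9.87 CPM (median 5.95). Among locked-wheel labelled mice, males lay between 1.98 and 5.33 CPM (median 2.95) and females between 4.03 and 6.27 CPM (median 5.23). In the first pair each female was above each male, and in the second a single male, MH 24, reached into the female range. Between FC and MC 21.5% of all genes were called, and how many of them separate in this way was not counted. Among running-wheel controls, males lay between 1.02 and 4.30 CPM (median 1.34) and females between 1.46 and 6.89 CPM (median 5.01). Among running-wheel labelled mice, males lay between 1.599 and 7.60 CPM (median 2.75) and females between 2.49 and 10.7 CPM (median 5.00). These last 2 pairs overlapped widely.

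The mean log2 fold change of Nr4a3 between females and males was 1.04 (standard error 0.16, adjusted p = 2.2e-07), a 2.06-fold higher level. In the single pairs it was 1.48 in locked-wheel controls (adjusted p = 0.000622), 0.83 in locked-wheel labelled mice (0.0298, not called without FH mouse 13 or 17 or MH mouse 8, 9 or 12), 1.35 in running-wheel controls (0.00699, where 7.65% of all genes were called) and 0.50 in running-wheel labelled mice (0.345, where 5.57% were called). The values were lower in the labelled mice, and the test of that difference was not passed (difference of the log2 fold changes -0.75, standard error 0.31, 95% interval -1.37 to -0.13, adjusted p = 0.543). In the sex comparison 8 of 8 fibroblast, 7 of 10 leukocyte, 5 of 6 erythroid and 2 of 5 satellite cell markers were called higher in females. Of 10 adipocyte markers 7 were higher and 1 lower, and of 10 endothelial markers 2 were higher and 2 lower. Of 12 skeletal muscle markers 2 were higher and 5 lower, and 0 of 8 Schwann cell, 12 liver and 2 tested neutrophil markers were called. Between FC and MC, for instance, the 10 adipocyte markers had a median log2 fold change of 1.13, with 8 called higher and 1 lower in females. The part of any of these cells in the sex difference was not tested. With the genotype label the value of Nr4a3 was 0.35 (adjusted p = 0.148) and with the wheel -0.20 (adjusted p = 0.517).

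Nr4a1, on chromosome 15 (101254269 to 101274795, plus strand), passed no test. Its group medians lay between 49.5 CPM (MH) and 82.3 CPM (FC). In FH mouse 34 it stood at 4.33 CPM (64 counts), against at least 35.6 CPM in each of the other 55 mice and 53.3 to 77.0 CPM in the other 6 of its group. With this mouse the log2 fold change of FH against FC was -0.78 (adjusted p = 0.198) and without it -0.18 (adjusted p = 0.684). For FHE against FH it changed from 0.45 to -0.14 and for FH against MH from -0.33 to 0.27 when the mouse was left out, with adjusted p of 0.251 or more either way. The negative mean with the genotype label (-0.18, adjusted p = 0.481) became -0.04 without the mouse. Ccn2, Elk4, Crtc2, Pdk4 and Arntl were the other listed genes that were low in this mouse alone.

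Atf3, a stress-induced repressor of the ATF/CREB family (chromosome 1, 191170296 to 191218039, minus strand), had a single mouse well above the others in MC, FCE, FH and FHE on the CPM scale. In labelled mice with locked wheels, males lay between 3.004 and 8.36 CPM (median 5.00) and females between 3.69 and 45.8 CPM (median 12.6). Of the 7 females, 5 lay above all 7 males. The log2 fold change was 1.198 (standard error 0.43, adjusted p = 0.0433), and without the highest mouse, FH 31, it was 0.89 (adjusted p = 0.140). Without FH mouse 34, whose library stood apart, it was 1.06 (adjusted p = 0.0860), and 9 of the 14 mice could each end the call (FH mice 14, 30, 31 and 34 and MH mice 8, 9, 11, 12 and 15). In the other 3 pairs the value with sex was negative, from -0.64 to -0.41, and the mean of the 4 was -0.08 (adjusted p = 0.827). With the genotype label the value was 1.26 in locked-wheel females (adjusted p = 0.176) and -0.40 in locked-wheel males (adjusted p = 0.735).

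Btg2 and Ier2 are the members outside the classical factors. Btg2, an antiproliferative protein that recruits the machinery removing poly(A) tails (chromosome 1, 134075170 to 134079120, minus strand), was higher in labelled males with running wheels. It ran from 7.03 CPM (median 9.09) to 12.2 CPM in MCE and from 8.68 CPM (median 13.7) to 22.2 CPM in MHE. The ranges overlapped, and 4 of the 7 labelled males lay above all 7 controls. The log2 fold change was 0.65 (standard error 0.17, adjusted p = 0.0203), where 2.63% of all genes were called, and it was not called when MCE mouse 5 or 10 or MHE mouse 1, 2 or 22 was left out (adjusted p up to 0.0880). In the other 3 pairs it was 0.00 to 0.20, and the mean was 0.22 (adjusted p = 0.0955). Elavl1 was higher in the same labelled males, at 53.2 to 69.8 CPM against 27.8 to 60.9 CPM in MCE. Ier2, a nuclear protein of growth-stimulated cells (chromosome 8, 84661331 to 84662852, minus strand), had group medians between 2.18 CPM (MC) and 3.36 CPM (FHE) and passed no test, with mean log2 fold changes of 0.15 to 0.18 in the 3 comparisons.

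No member passed the test of whether the wheel contrast differed by genotype label or whether the genotype contrast differed by sex. These tests, as the mean over the remaining factor, called 1 gene each of 14321 (0.00698%). An unadjusted p under 0.05 in limma was reached by 1 member in the first (Nr4a1), against 11.3% of all genes, and by 3 in the second (Nr4a3, Btg2 and Atf3), against 7.71%. The Nr4a1 value includes FHE against FH, which turned from 0.45 to -0.14 without FH mouse 34. In single pairs, the wheel comparison called 0 members in males and females of either label, where it called 3.24% of all genes (MCE against MC), 8.74% (FCE against FC), 0.0419% (MHE against MH) and 3.85% (FHE against FH). In these 4 pairs 0, 1 (Junb), 2 (Atf3 and Btg2) and 0 members had an unadjusted p under 0.05, against 16.8%, 23.3%, 12.7% and 17.4% of all genes. Limma fitted to the compared groups alone called Egr1 in FCE against FC. In the genotype comparison 0 members were called in locked-wheel males (1.15% of all genes), locked-wheel females (0.384%) and running-wheel females, where 0 genes of any kind were called and 1807 had an unadjusted p under 0.05. In these 3 pairs 0, 2 (Atf3 and Nr4a1) and 2 (Fos and Junb) members had an unadjusted p under 0.05, against 16.7%, 14.3% and 12.6% of all genes, and DESeq2 called Atf3 in locked-wheel females. In MHE against MCE 4 members were under 0.05 in limma (Btg2, Fos, Nr4a3 and Egr1), against 15.5% of all genes. In the mean genotype contrast 6 were, against 24.7%. These counts are not independent, since the members correlated over the mice.

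The members tended to be high in the same mice. After each group's mean was taken out, 44 of the 45 pairs of members had a positive Spearman correlation over the 56 mice, with a median of 0.27. The closest pairs were Junb with Egr1 (0.59), Jun with Egr1 (0.59), Fos with Egr1 (0.59), Fos with Jun (0.56) and Atf3 with Btg2 (0.52), and the lowest was Nr4a1 with Egr1 (-0.04). Between a member and any gene tested, the median size of the correlation was 0.09 to 0.12. Nr4a1 and Nr4a3 correlated with each other at 0.17, and Nr4a3 had the lowest median with the other members (0.14) and Egr1 the highest (0.37). Values of a mouse share a library, its depth and its tissue piece, so these correlations describe these libraries. MHE mouse 22 had the highest of its group in 7 of the 10 members and MHE mouse 7 the lowest in 5.

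**Figure D4:**
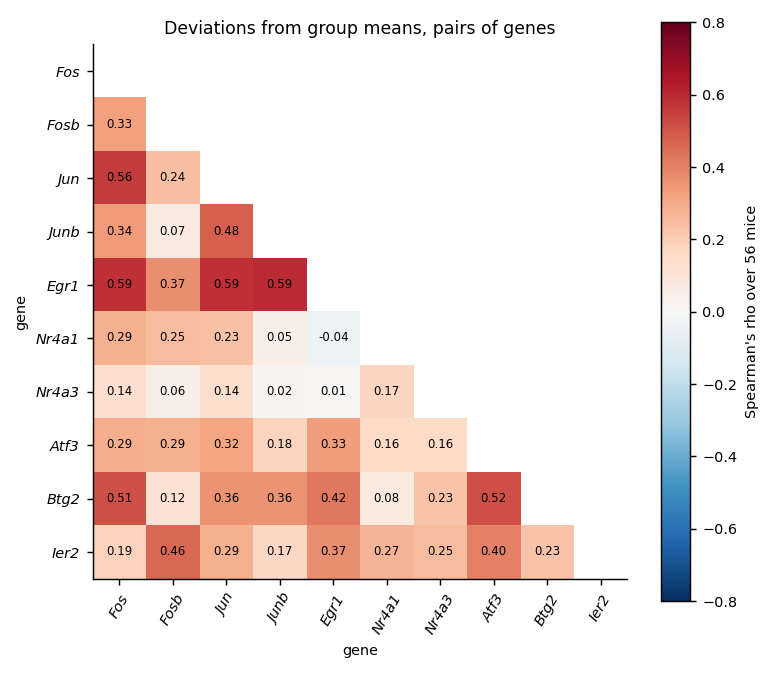
Spearman's rho (colour and printed values) between each pair of immediate early genes over the 56 mice, computed on log2 CPM after the group means were taken out. Egr1 has values of 0.59 with Fos, Jun and Junb, and Nr4a3 has values between 0.01 and 0.25 with the other members.

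The gene outside the set whose level followed the mean of the 10 members most closely was Ccn1, a matricellular protein and itself a classical immediate early gene, with a Spearman correlation of 0.75 over 56 mice. It was followed by Rapgef3, an exchange factor activated by cyclic AMP (0.64), Tnfrsf12a (0.59), Tnpo1 (0.59), Mapre2 (0.58), Xbp1 (0.57), Klf10 (0.57), Spsb2 (0.56), Mknk2 (0.56) and Ahsa2 (0.56). Among single members, Atf3 was closest to Hspb1, a small heat shock protein (0.82), Btg2 to Rapgef3 (0.67), Jun to Irx3 (0.64), Fos to Gba2 (0.63), Nr4a1 to Lix1l (0.60) and Fosb to Arhgap24 (0.56). Egr1 was closest to C330007P06Rik (0.55), Nr4a3 to Cldn11 (0.53), Ier2 to Cfl1 (0.52) and Junb to Dusp1, a phosphatase that shuts off MAP kinases (0.51). The correlation of Atf3 with Hspb1 was the highest of these. MC mouse 18, with 34.9 CPM of Atf3, also had the highest Hspb1 of all mice at 408.4 CPM.

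**Figure D5:**
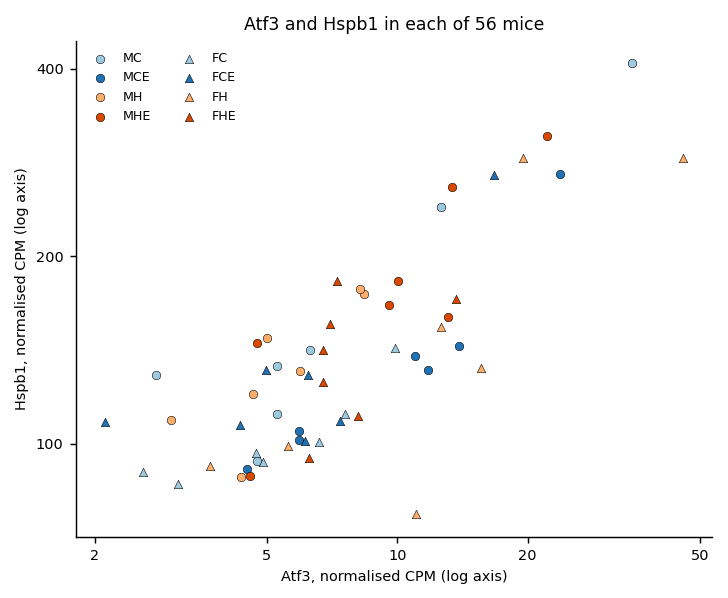
Normalised CPM of Atf3 (x axis) and Hspb1 (y axis), both on logarithmic axes, in each of the 56 mice (circles male, triangles female, colours by genotype label and wheel). The mice with more Atf3 tend to hold more Hspb1, up to MC mouse 18 at 34.9 and 408.4 CPM.

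Other genes of the same response were read from lists of related genes. Of 10 further AP-1 and related leucine zipper factors tested, 1 was called higher with the genotype label, 0 with the wheel, and 1 higher and 2 lower with sex. The first was Jund, the Jun subunit that is present in resting cells, at a log2 fold change of 0.36 (standard error 0.05, adjusted p = 7.4e-06). In females Atf4 (log2 fold change -0.37) and Mafg (-0.34) were lower and Batf3 was higher (0.70). Of 11 other immediate early transcription factors, Klf2 was called higher with the genotype label (0.29, adjusted p = 0.0293), Nfil3 higher (0.52, adjusted p = 0.00352) and Klf6 lower (-0.19, adjusted p = 0.0209) with the wheel. With sex 2 of the 11 were higher, Nr4a2, the third receptor of the Nr4a family (0.46, adjusted p = 0.00490), and Irf1 (0.22), and 1 was lower, Csrnp1 (-0.49).

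Of 20 other immediate early effectors, 2 were higher with the genotype label, Mcl1, a survival factor (0.25, adjusted p = 1.0e-05), and Sik1, a kinase induced by cyclic AMP (0.49, adjusted p = 0.00535). Of the list 1 was lower, Gadd45a, a stress sensor induced in denervated muscle (-0.56, adjusted p = 5.8e-05). None of the 20 was called with the wheel by limma. With sex 4 were higher and 4 lower in females, among them Gadd45g (log2 fold change -1.65, standard error 0.11, adjusted p = 7.9e-19), Gadd45a (0.65), Ier5 (-0.43) and Trib1 (-0.36). The median log2 fold change of the list with the genotype label was 0.09.

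Genes that end the response were read as 12 phosphatases, Sprouty inhibitors and mRNA decay factors. With the genotype label 1 was higher, Zfp36, which binds AU-rich elements and speeds the decay of their transcripts (0.34, standard error 0.09, adjusted p = 0.00726). With the wheel 2 were higher, the MAP kinase phosphatases Dusp6 (0.43, adjusted p = 0.000526) and Dusp10 (0.23, adjusted p = 0.0324). With sex 2 were higher and 3 lower in females, among them Dusp10 (-0.49), Dusp8 (-0.23), Zfp36l1 (0.14) and Zfp36l2 (0.26).

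Upstream, 22 kinases and factors that switch these genes on were read. With the genotype label 1 was higher (Camk2d, 0.15) and 3 lower (Map2k2 at -0.17, Mapk14 at -0.17 and Mapk9 at -0.21), and with the wheel 1 was lower (Map2k2, -0.15). With sex 2 were higher and 10 lower in females, among them the p38 kinase gene Mapk14 (-0.34, adjusted p = 4.5e-10), Camk2a (-0.36), Map2k2 (-0.24) and Srf (-0.30, adjusted p = 2.9e-06). The median log2 fold change of the list with sex was -0.12.

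Beside the genotype difference of Fos and Egr1, markers of other cells were read for the whole lists. Schwann cell markers were called higher in 3 of 8 genes, among them Pmp22 (0.31, adjusted p = 0.00827) and Sox10 (0.44), and all 8 had positive values. They summed to between 125.0 and 328.6 CPM in MC and 111.2 and 355.1 CPM in MH, and to between 170.3 and 248.1 CPM in MCE and 155.6 and 377.4 CPM in MHE. In females they summed to between 137.4 and 267.9 CPM in FC and 151.6 and 309.9 CPM in FH, and to between 128.4 and 257.4 CPM in FCE and 201.3 and 298.6 CPM in FHE. Of the other lists, 1 of 8 fibroblast markers (Mfap5, 0.27) and 1 of 10 adipocyte markers (Car3, 0.42) were called higher, 1 of 10 endothelial markers lower (Flt1, -0.13), and 0 of 10 leukocyte, 6 erythroid, 5 satellite cell and 12 liver markers were called. Of the 6 neutrophil markers 2 were tested and 0 called. All 10 leukocyte markers (median log2 fold change 0.12), all 8 fibroblast markers (0.06) and 10 of 12 liver markers (0.18) had positive values without passing the test, apart from Mfap5. The part of any of these cells in the difference was not tested.

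Lists of other inducible responses were read in the same way. Of 10 heat shock genes, 2 were called higher with the wheel, Bag3 (0.29, adjusted p = 3.0e-05) and Hsph1 (0.29, adjusted p = 7.6e-05), and 0 with the genotype label. With sex 1 was higher and 2 lower in females. Of 12 genes induced by glucocorticoids, 1 was higher (Cdkn1a, 0.38) and 3 lower with the genotype label (Klf9 at -0.21, Tsc22d3 at -0.26 and Klf15 at -0.23). With the wheel Zbtb16 was higher (0.37) and Per1 lower (-0.67), and with sex 2 were higher and 4 lower. Of 13 genes of the circadian clock, 3 were higher with the wheel, among them Arntl (0.58), and 4 lower, among them Per2 (-0.99) and Ciart (-1.12). Arntl was low in FH mouse 34 alone, a mouse with a locked wheel, and its value without that mouse was not computed. With the genotype label 1 was higher (Nr1d1, 0.18), and with sex 2 were higher and 9 lower. The labels give no time of day or delay at tissue collection, and the part of either in the levels of the members was not tested.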

How the data were processed

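The authors deposited raw read counts per gene for 56 mice, which are whole numbers and not normalized. The submitters' processing notes name R 4.0.3, edgeR 3.38.4 and the builds GRCm38 and mm10. The aligner and the use of strand in counting are not given in the sources used here. The study's methods describe stranded total RNA libraries and the labels a 3′ mRNA kit. If the second holds, counts do not scale with transcript length. Of the 15539 genes, 15503 matched GENCODE M21. The smallest total of a gene over all mice is 168, so rarely read genes are not in the table.

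All 8 groups were fitted together: filterByExpr and TMM in edgeR (4.0.16), voom and limma (3.58.1) in R 4.3.3, with Benjamini-Hochberg adjustment over 14321 genes. For correlations, CPM were put on a log2 scale (prior count 2). The alternatives included DESeq2 (1.42.0). The scripts were tested on simulated data. The members and lists were chosen with earlier results of these data known. All members, called genes of the lists (at most 4 per list and mean contrast, smallest adjusted p first) and the genes most like the members are named, except 1 gene that is not reported here, and genes beyond these were named after their values were seen.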

Additional observations from a re-analysis of the deposited data

Results flagged for a closer look

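In 14 of the 80 groups examined (10 genes in 8 groups of 7 mice), the highest or lowest mouse lay apart from the other 6 by Dixon's gap test on CPM, 13 times on the high side. For normally spread values chance gives about 1 in 20. On log2 CPM, a scale added after seeing the data, 5 of the 80 groups did, and 4 of these 5 cases also lay apart on CPM (FHE 8 in Fosb and Atf3, FC 16 in Egr1 and FH 34 in Nr4a1). The other was MCE mouse 26, low in Junb (5.196 CPM). On CPM, MHE mouse 22 was apart in Fos (21.5 CPM, others 3.49 to 9.22), Egr1 (44.4 CPM, others up to 19.9) and Junb (17.9 CPM, others up to 10.6). FHE mouse 8 was apart in Fosb (4.63 CPM, others up to 1.69), Nr4a3 (10.7 CPM, others up to 5.93) and Atf3 (13.7 CPM, others up to 8.10). Atf3 was also apart in MC mouse 18 (34.9 CPM, others up to 12.6), FCE mouse 28 (16.7 CPM, others up to 7.38) and FH mouse 31 (45.8 CPM, others up to 19.5). Nr4a3 was apart in MCE mouse 28 (4.30 CPM, others up to 2.02) and MHE mouse 1 (7.60 CPM, others up to 3.63), Fosb in FCE mouse 5 (2.17 CPM, others up to 1.01) and Egr1 in FC mouse 16 (12.7 CPM, others up to 9.49). Nr4a1 in FH mouse 34 (4.33 CPM, others from 53.3) was the 1 mouse that lay low.

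The wheel contrast of Junb differed between the sexes by -0.56 on the log2 scale in limma's interaction test, with values above 0 in both male pairs (0.06 and 0.33) and below 0 in both female pairs. In this test 13.7% of all genes were called. Junb lost the call in 19 of the 56 fits that left out 1 mouse, and with edgeR, DESeq2 and limma's trend method.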

How the results depend on the processing

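Besides leaving out each mouse, 10 alternatives were tried, and 231 of 240 counts of members called stayed within 1.5 times the reported count, while 404 of 427 gene values kept their direction and their side of the threshold. For the wheel, 1 member in place of 0 was called by edgeR's quasi-likelihood test (Egr1, 0.44, adjusted p = 0.0497) and with sample quality weights (0.48, adjusted p = 0.0254). The count rose from 0 to 1 for FCE against FC with only the compared groups fitted (Egr1, 0.56, adjusted p = 0.0341) and for FH against FC in DESeq2 (Atf3, 1.52, adjusted p = 0.0494). It fell from 1 to 0 for MHE against MCE with limma's trend method and with only the compared groups fitted (Btg2), and for the wheel by sex with edgeR, DESeq2 and the trend method (Junb at -0.51, -0.50 and -0.54). The sex value of Nr4a1 turned from -0.04 to 0.083 with edgeR, 0.085 with DESeq2 and 0.079 with quality weights. The Elavl1 value in MHE against MCE was 0.378 with edgeR and 0.443 with only the compared groups fitted, both with an adjusted p over 0.05, and that in FHE against FCE turned to -0.002 with DESeq2 and -0.001 with its size factors. The sex value of Egr1 missed the threshold with edgeR (adjusted p = 0.161), DESeq2 (0.176), limma's trend method and no filter on low counts (both just over 0.05), which left 2 members called for sex in place of 3. For FC against MC, 3 in place of 2 were called with only the compared groups fitted, since Fos was added (0.69, adjusted p = 0.0441). Where values moved, the cause was not tested.

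With each mouse left out in turn, the count of members called ran from 0 to 1 for the wheel (Egr1, without FH 34, FHE 7, MC 19, MH 9 or MHE 4), from 2 to 3 for the genotype label (Junb added without MH 8), and from 2 to 4 for sex. It ran from 0 to 1 for MHE against MCE, from 0 to 3 for FH against MH, from 0 to 1 for FHE against MHE (Btg2, without MHE 7) and from 0 to 1 for the wheel by sex. Fos with the genotype label ran from 0.648 to 0.758 and Egr1 from 0.442 to 0.548, and both were called in all 56 fits. Elavl1 in MHE against MCE ran from 0.331 to 0.505 and lost its call without MCE 10, 13 or 25 or MHE 1 or 21.

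A replicate block left each count as it was, 0 members for the wheel, 2 for the genotype label and 3 for sex. The replicate numbers do not pair the mice: 0 numbers are shared within a sex, and the 12 shared by males and females of the same genotype label and wheel state correlated at -0.20 to 0.18. This check covers shared numbers only, and litter, cage and cohort were not examined. Counts of 1 to 63 per mouse limit Fosb.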
